A study of Mus musculus with 8 samples.

Results

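The 30 genes described here make cholesterol from acetyl-CoA, control that synthesis through SREBP2, or carry and store the product. They were chosen by name from general knowledge of the pathway, with earlier results of these data known, and comprised 20 enzymes of synthesis and 10 genes of control, transport and storage. All 30 were measured, by 43 probes, among 15319 mouse genes that could be tested. The RNA came from AtT20 cells, a line of mouse pituitary corticotroph tumor cells that secrete ACTH. The series held 2 groups of 4 samples each. In the HX630 group, the cells were incubated with 10 μM HX630, a synthetic agonist of the retinoid X receptors (RXRs), for 48 hr. In the control group, they were kept for 48 hr without HX630. Both groups were in DMEM with 1% stripped FBS (serum treated with resin and charcoal). HX630 was kept as a stock in DMSO, and the labels do not say whether the control received DMSO. They also do not say whether samples of a group were separate cultures, so p-values measure only the spread between these samples. The result is a comparison in 1 cell line at 1 dose and 1 time.

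A cell makes cholesterol in the cytosol and the endoplasmic reticulum (ER). Acetyl-CoA is built up to mevalonate, mevalonate to isoprene units, these to squalene, and squalene is closed to lanosterol and trimmed to cholesterol. SREBP2 is a transcription factor that is made as a membrane protein of the ER. When sterols are low, SCAP escorts it to the Golgi, where the proteases S1P and S2P release the part that enters the nucleus and turns on the genes of synthesis and uptake. When sterols are high, the INSIG proteins hold SCAP in the ER. Some of the SREBP2 targets also feed back on it, since Insig1 and Srebf2 are targets themselves.

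SREBP2 acts at promoters together with NF-Y, which binds CCAAT, and often Sp1, which binds GGGCGG. Windows of 300 bases around the start of a gene (250 before and 50 after) were taken from RefSeq on mouse build GRCm38.p6, which listed 25 of the 30 genes. The names without a window were Fdps, Fdft1, Sqle, Stard4 and Npc1. Of the 25 genes, 21 had CCAAT on either strand in at least 1 window, against 42.9% of the 12198 tested genes with a window. GGGCGG stood in 22 of the 25, against 60.9%. A core of the sterol regulatory element, TCACNCCAC, stood in 1 of the 25, Hmgcs1, against 1.44%. These are matches of letters, searched on both strands, and the search did not look for other forms of the element. Each motif was counted on its own, whether or not it overlapped another.

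The 6 windows printed here belong to the genes that the comparisons turn on: Hmgcs1, Nsdhl and Tm7sf2, which rose strongly, Lbr, which shares the reaction of Tm7sf2, and Insig1 and Insig2, whose changes differed. They are written 5′ to 3′ along the strand of the gene, in lower case, with CCAAT (or ATTGG, the same motif read from the other strand) and TCACNCCAC in capitals. The positions on GRCm38.p6 are chr13:119690101-119690400 on the plus strand for Hmgcs1, chrX:72918271-72918570 on the plus strand for Nsdhl, chr19:6067801-6068100 on the minus strand for Tm7sf2, chr1:181842352-181842651 on the minus strand for Lbr, chr5:28071162-28071461 on the plus strand for Insig1 and chr1:121332540-121332839 on the minus strand for Insig2, the first of its 3 windows.
Hmgcs1: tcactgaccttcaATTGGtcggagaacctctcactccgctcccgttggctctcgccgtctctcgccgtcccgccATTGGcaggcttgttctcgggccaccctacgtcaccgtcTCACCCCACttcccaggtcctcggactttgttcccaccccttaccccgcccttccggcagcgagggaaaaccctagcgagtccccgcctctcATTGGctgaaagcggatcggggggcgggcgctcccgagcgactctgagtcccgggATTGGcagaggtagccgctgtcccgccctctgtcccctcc
Nsdhl: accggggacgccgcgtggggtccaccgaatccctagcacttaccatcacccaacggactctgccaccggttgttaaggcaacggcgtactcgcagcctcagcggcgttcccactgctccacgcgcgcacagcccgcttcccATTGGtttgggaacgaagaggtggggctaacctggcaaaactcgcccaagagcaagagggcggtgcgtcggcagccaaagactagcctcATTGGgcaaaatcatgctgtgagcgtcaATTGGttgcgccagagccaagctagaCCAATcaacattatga
Tm7sf2: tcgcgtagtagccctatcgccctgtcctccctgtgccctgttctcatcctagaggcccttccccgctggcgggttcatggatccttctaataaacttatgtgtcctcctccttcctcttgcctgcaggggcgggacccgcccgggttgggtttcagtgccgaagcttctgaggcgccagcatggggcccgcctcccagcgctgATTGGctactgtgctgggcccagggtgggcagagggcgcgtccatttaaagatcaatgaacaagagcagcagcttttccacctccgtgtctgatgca
Lbr: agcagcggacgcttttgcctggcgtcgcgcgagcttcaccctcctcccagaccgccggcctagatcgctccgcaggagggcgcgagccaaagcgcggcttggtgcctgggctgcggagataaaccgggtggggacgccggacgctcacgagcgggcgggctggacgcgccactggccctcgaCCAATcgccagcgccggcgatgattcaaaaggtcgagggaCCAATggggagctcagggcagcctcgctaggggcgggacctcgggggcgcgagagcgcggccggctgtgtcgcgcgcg
Insig1: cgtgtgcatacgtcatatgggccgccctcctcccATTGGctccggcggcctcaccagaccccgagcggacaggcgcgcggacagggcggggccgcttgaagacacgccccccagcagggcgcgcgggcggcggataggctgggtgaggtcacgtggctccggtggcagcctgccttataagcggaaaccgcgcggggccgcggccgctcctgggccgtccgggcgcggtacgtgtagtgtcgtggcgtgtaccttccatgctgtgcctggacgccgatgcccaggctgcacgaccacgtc
Insig2: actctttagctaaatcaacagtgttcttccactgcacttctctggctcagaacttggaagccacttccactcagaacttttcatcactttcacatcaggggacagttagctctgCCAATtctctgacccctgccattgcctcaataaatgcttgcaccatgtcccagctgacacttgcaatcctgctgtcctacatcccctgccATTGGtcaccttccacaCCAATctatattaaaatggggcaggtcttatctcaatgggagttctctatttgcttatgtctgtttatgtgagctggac

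Hmgcs1 held the sterol element 137 bases before its start and 4 copies of CCAAT. Nsdhl also held 4 copies of CCAAT and Tm7sf2 held 1. Insig1 held 1 copy, Lbr held 2 and the first window of Insig2 held 3. Windows 2 and 3 of Insig2 held no copy, so its count depends on the start that is taken. Over all windows, CCAAT stood in 12 of the 13 genes called higher that had a window, in 8 of the 11 that were not called and in Npc2, the 1 gene called lower.

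Signals are given as the log2 of the processed intensity of a probe minus the 75th percentile of its array, so that 0 stands for that percentile, and the level of 1 probe cannot be set against that of another. A gene with several probes is represented by its brightest one. A gene was called when limma gave HX630 against control an adjusted p below 0.01 and the fold change exceeded 1.5, which is 0.58 on the log2 scale. The adjustment was made over all 28552 probes tested. Where the 4 arrays of each group do not overlap, the exact permutation test gives p = 0.0286, the smallest that 4 against 4 arrays allow. The pairs of genes compared below were chosen with earlier results of these data known. For them this p describes the separation of the arrays and is not independent support.

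Most enzymes of cholesterol synthesis rose in AtT20 cells with HX630. Of the 30 genes, 17 were called higher and 1, Npc2, was called lower, against 8.38% and 11.2% of all genes tested. At an adjusted p below 0.01 and any size of change, 21 of the 30 were higher and 3 were lower, against 24% and 27.2% of all genes. Every HX630 array was above every control array for 22 of the 30 genes and below it for 4, against 28.6% and 32.8% of all genes. The 17 genes called higher changed by 0.65 to 1.56 on the log2 scale. The median log2 fold change of the 30 genes was 0.70, and that of all genes tested was -0.03. Of the 20 enzymes, 14 were called higher and none lower, and their median was 0.91. Of the 10 genes of control, transport and storage, 3 were called higher and 1 lower, and their median was -0.05.

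On single arrays, the median of the 30 genes relative to the control mean lay between -0.04 and 0.05 in the controls and between 0.65 and 0.73 with HX630. The 2 ranges did not overlap. The 4 control arrays shared 1 slide and the 4 HX630 arrays shared a different one, so slide and treatment cannot be told apart for any value given here. The 75th percentile of intensity was 1335 to 1863 on the control arrays and 1803 to 1899 on the HX630 arrays, and 69.7% to 72.7% and 70.8% to 73.5% of probes were well above background. The 7 corticotroph markers were all above background on all 8 arrays, but their levels changed: 2 were called higher and 1 lower. The summed level of the 7, in multiples of the 75th percentile, was 308 to 383 on the control arrays and 229 to 237 on the HX630 arrays. Among the 19 markers of other pituitary, connective tissue, blood, vessel, adrenal and liver cells, 18 had a probe. Of these, Prl, Tshb, Pdgfra, Cdh5, Cyp11a1 and Alb were above background on no array, and 8 were above it on all. Among the 8, Dcn was called higher and Gh and Pecam1 were called lower. The summed level of the 18, in multiples of the 75th percentile, was 0.567 to 0.754 on the control arrays and 0.524 to 0.665 on the HX630 arrays, and the part of other cells in the results was not tested.

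**Figure D1:**
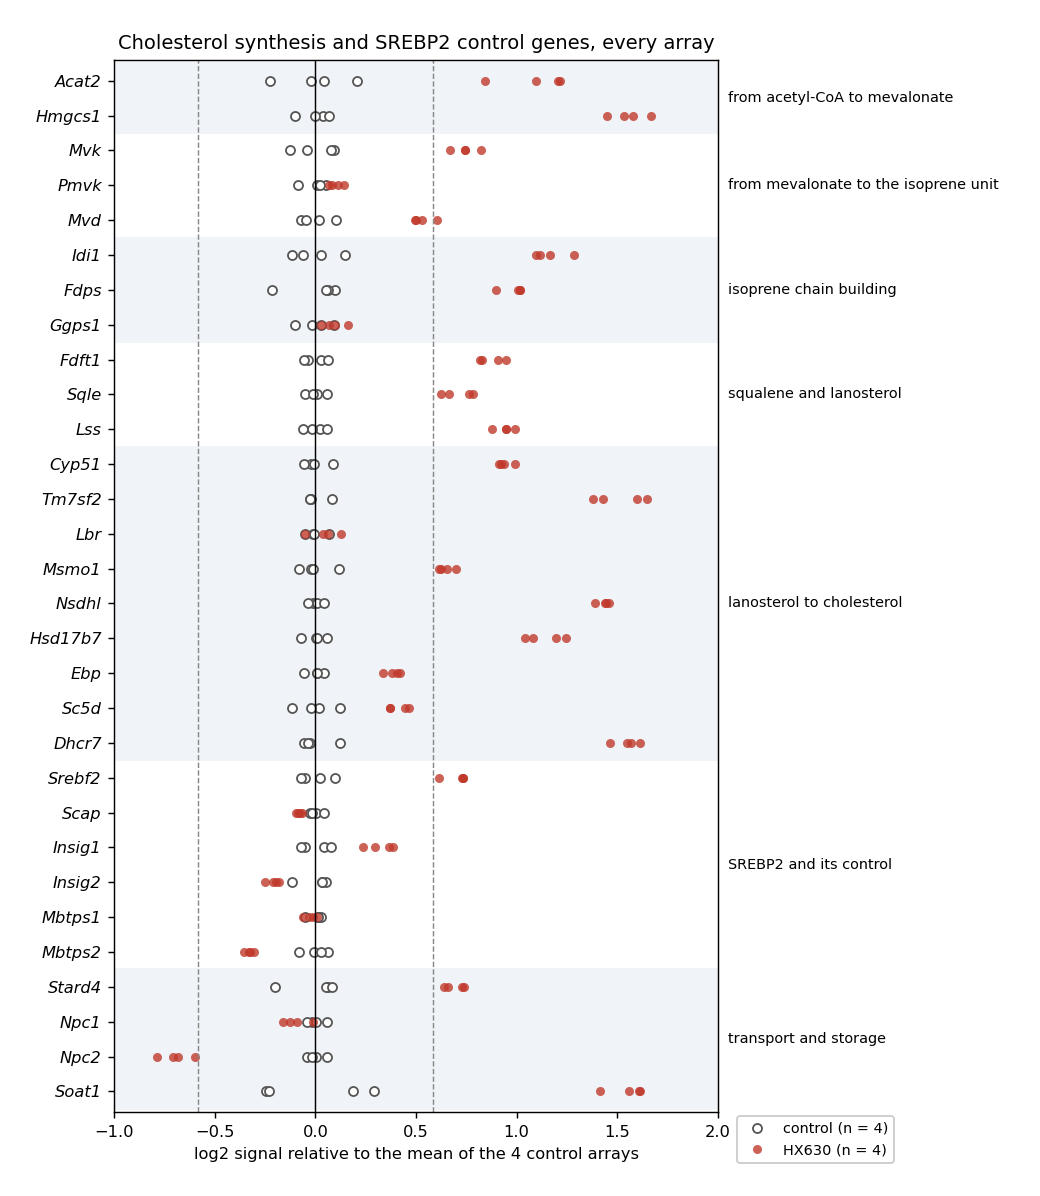
Log2 signal of the 30 genes on every array, relative to the mean of the 4 control arrays of the gene, in the order of the pathway (brightest probe; open points, control; filled points, HX630). Dashed lines mark a fold change of 1.5. For 22 genes all HX630 points lie above all control points, and Npc2 is the 1 gene with a mean below the lower line.

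The first enzymes turn acetyl-CoA into mevalonate. Hmgcs1, the cytosolic HMG-CoA synthase, was called and held the sterol element in its promoter window. Its signals were 3.06, 2.91, 3.02 and 3.08 in the controls and 4.47, 4.69, 4.55 and 4.60 with HX630. The difference was 1.56 (SE 0.0586, 2.95-fold, adjusted p = 5e-07), a size reached by 1.01% of all genes tested. Acat2, the cytosolic thiolase that joins acetyl-CoA units (a different protein from the esterifying enzymes that share the older name ACAT), had signals of -3.09, -3.32, -3.52 and -3.25 in the controls and -2.45, -2.20, -2.09 and -2.08 with HX630. It rose 2.13-fold (log2 1.09, SE 0.114, adjusted p = 9.51e-05). The groups did not overlap for either gene.

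The steps from mevalonate to the isoprene unit moved less evenly. Mvk, mevalonate kinase, rose from 2.49, 2.48, 2.27 and 2.36 to 3.07, 3.22, 3.14 and 3.14, which was 1.68-fold (log2 0.75, SE 0.0604, adjusted p = 2.34e-05). Its other probe was called too, with a log2 change of 0.69. Pmvk, the next kinase, was not called, with signals of 4.97, 4.93, 4.84 and 4.94 in the controls and 4.99, 5.06, 5.00 and 5.03 with HX630. Its HX630 arrays all lay above the controls, but by only 0.10 (adjusted p = 0.0614), and its other probe gave 0.11 (adjusted p = 0.0251). Mvd, the decarboxylase that yields the isoprene unit, passed the adjusted p (4.59e-05) with a change of 0.53 (1.45-fold), just under the fold change required. It passed that size under quantile normalization (0.59) and when arrays were scaled to their median (0.62) or to the spike-in probes (0.76).

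Idi1, the isomerase that readies the isoprene unit, was at 1.46, 1.34, 1.20 and 1.25 in the controls and 2.48, 2.60, 2.41 and 2.43 with HX630, a rise of 2.24-fold (log2 1.17, SE 0.0685, adjusted p = 4.06e-06). Fdps, which builds farnesyl diphosphate, the branch point between sterols and other isoprenoids, rose from 4.73, 5.05, 5.01 and 5.00 to 5.85, 5.97, 5.97 and 5.96 (1.98-fold, log2 0.99, SE 0.0742, adjusted p = 1.55e-05). Replicate 1 was the lowest array of both groups. Ggps1, which lengthens farnesyl diphosphate toward protein prenylation and away from sterols, was not called. Its signals of -0.79, -0.90, -0.98 and -0.85 in the controls overlapped with -0.72, -0.78, -0.81 and -0.85 with HX630 (log2 change 0.09, adjusted p = 0.181). Its other probe went the other way, by -0.23 (adjusted p = 0.000588). Fdps makes the substrate of both routes and Ggps1 uses it for one of them, and the change of Fdps was larger by 0.90 (95% interval 0.60 to 1.19, exact permutation p = 0.0286).

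All 3 enzymes from farnesyl diphosphate to lanosterol were called. Fdft1, squalene synthase, which commits farnesyl diphosphate to sterols, rose from 1.60, 1.64, 1.54 and 1.52 to 2.40, 2.53, 2.48 and 2.39 (1.83-fold, log2 0.87, SE 0.0461, adjusted p = 2.28e-06). A dim probe of the same gene was not well above background on any control array and was above it on all 4 HX630 arrays, so its signal was at least 1.44-fold higher with HX630. This probe passed the filter on dim signals only through the HX630 arrays, where it had to be higher, and is not counted as support for the call. Sqle, squalene epoxidase, a rate-limiting step of the sterol branch, was at 3.79, 3.74, 3.67 and 3.71 in the controls and 4.35, 4.51, 4.49 and 4.39 with HX630 (1.63-fold, log2 0.71, SE 0.0485, adjusted p = 9.1e-06). Lss, which closes the ring of lanosterol, rose from 0.61, 0.64, 0.52 and 0.57 to 1.46, 1.58, 1.53 and 1.54 (1.92-fold, log2 0.94, SE 0.0409, adjusted p = 9.22e-07). In each of these genes the lowest HX630 array was above the highest control array by more than the range within either group.

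Of the 9 genes from lanosterol to cholesterol, 6 were called higher, 2 passed only the adjusted p and 1, Lbr, passed neither. Cyp51, which removes the first methyl group of lanosterol, rose from -0.42, -0.53, -0.57 and -0.52 to 0.43, 0.48, 0.41 and 0.40 (1.92-fold, log2 0.94, SE 0.0419, adjusted p = 1.01e-06). Tm7sf2 and Lbr then encode proteins that both can reduce the same double bond of the sterol ring. Tm7sf2 rose from 0.41, 0.30, 0.30 and 0.30 to 1.75, 1.92, 1.98 and 1.71 (2.86-fold, log2 1.52, SE 0.068, adjusted p = 1.05e-06), and its other probe by 1.74. Lbr, which also anchors chromatin at the inner nuclear membrane, was at 2.07, 1.96, 1.99 and 2.00 in the controls and 2.13, 2.04, 1.96 and 2.07 with HX630. Its change of 0.04 had an adjusted p of 0.468, its groups overlapped, and its other probe gave -0.16 (adjusted p = 0.0317). The change of Tm7sf2 exceeded that of Lbr by 1.47 (95% interval 1.23 to 1.71, exact permutation p = 0.0286), the widest gap among the 9 pairs compared.

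Msmo1, Nsdhl and Hsd17b7 act in turn to remove the methyl groups that lanosterol still carries, and all 3 were called. Msmo1 had the smallest change among the genes called higher, from 4.26, 4.12, 4.06 and 4.13 to 4.76, 4.84, 4.75 and 4.79 (1.57-fold, log2 0.65, SE 0.0489, adjusted p = 1.6e-05). Nsdhl rose from -0.50, -0.48, -0.52 and -0.44 to 0.91, 0.96, 0.98 and 0.96 (2.7-fold, log2 1.44, SE 0.0333), with the smallest adjusted p of the 30 genes (1.04e-07). Its other probe rose by 1.27. Hsd17b7, whose control arrays lay between -2.08 and -1.95 (mean -2.01), rose to -0.97, -0.77, -0.81 and -0.93 (2.2-fold, log2 1.14, SE 0.0553, adjusted p = 1.51e-06), and its other probe by 1.38. The groups did not overlap for any probe of these 3 genes.

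Ebp, the sterol isomerase, and Sc5d, the desaturase after it, passed the adjusted p with changes under the fold change required. Ebp went from 3.74, 3.78, 3.67 and 3.74 to 4.12, 4.14, 4.15 and 4.07 (1.31-fold, log2 0.39, adjusted p = 5.96e-05), and Sc5d from 1.70, 1.59, 1.46 and 1.55 to 2.04, 2.02, 1.94 and 1.94 (1.33-fold, log2 0.41, adjusted p = 0.000426). The groups did not overlap for either. Dhcr7, the reductase that ends this route, rose from -0.83, -0.86, -0.84 and -0.68 to 0.66, 0.75, 0.77 and 0.81 (2.93-fold, log2 1.55, SE 0.0532, adjusted p = 3.63e-07). Its lowest HX630 array was above its highest control array by more than the range within either group.

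**Figure D2:**
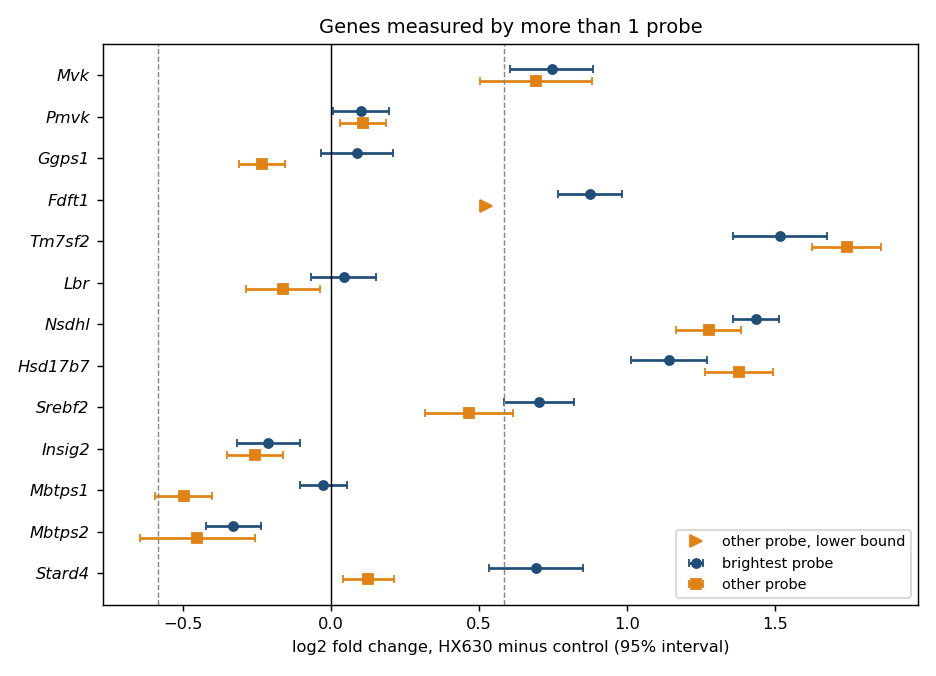
Log2 fold change (HX630 minus control) with its 95% interval for the 13 of the 30 genes that have another probe (circles, brightest probe; squares, other probe; triangle, lower bound for the Fdft1 probe that was below background in the controls). Dashed lines mark a fold change of 1.5. The probes of Ggps1 and Lbr lie on opposite sides of 0, and those of Stard4 and Mbtps1 lie far apart.

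The control genes did not move as 1 group. Srebf2, which encodes SREBP2, was called, and its escort, its retention proteins and its proteases were not. Srebf2 rose from -0.88, -0.81, -0.90 and -0.73 to -0.10, -0.10, -0.11 and -0.22 (1.63-fold, log2 0.70, SE 0.0507, adjusted p = 1.24e-05). Its other probe changed by 0.47 (1.38-fold, adjusted p = 0.000431), so the call rests on the brighter probe: the mean of both probes, 0.58, was just under the fold change required, and normexp background correction gave 0.53. The change of Srebf2 was larger than that of Srebf1, which encodes SREBP1 and was at 0.19 (adjusted p = 0.0234), by 0.51 (95% interval 0.36 to 0.66, exact permutation p = 0.0286). This difference was 0.32 with normexp and 0.39 with the probes of each gene averaged.

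Scap had signals of 3.88, 3.92, 3.85 and 3.86 in the controls and 3.81, 3.79, 3.80 and 3.78 with HX630. All HX630 arrays were lower, by 0.08 on average, with an adjusted p of 0.0518, and the sign turned when arrays were scaled to their median (0.01) or to the spike-in probes (0.15), or with normexp (0.01). Insig1 and Insig2, which both hold SCAP in the ER, moved apart. Insig1 went from 0.10, 0.13, 0.00 and -0.02 to 0.44, 0.42, 0.35 and 0.29 (1.25-fold, log2 0.32, SE 0.0518, adjusted p = 0.00104). Insig2 went from 1.93, 2.08, 2.10 and 2.08 to 1.85, 1.84, 1.79 and 1.86, a change of -0.21 (adjusted p = 0.00478) that its other probe shared (-0.25) and that was 0.02 under spike-in scaling. Neither was called, but the difference between their changes was 0.53 (95% interval 0.35 to 0.71, exact permutation p = 0.0286). Scaling an array moves both genes alike, and the difference was 0.50 to 0.63 under the other settings with all arrays. The change of Insig1 was also larger than that of Scap, by 0.40 (95% interval 0.31 to 0.50, exact permutation p = 0.0286).

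The proteases that release SREBP2 were not called. Mbtps1, which encodes S1P, was at 3.24, 3.25, 3.17 and 3.24 in the controls and 3.16, 3.21, 3.19 and 3.23 with HX630 (log2 change -0.03, adjusted p = 0.544). Its sign was positive under quantile, median and spike-in scaling, and its dimmer probe was lower by 0.50 (adjusted p = 2.76e-05). Mbtps2, which encodes S2P, went from -2.81, -2.74, -2.66 and -2.70 to -3.03, -3.05, -3.08 and -3.06, a change of -0.33 (adjusted p = 0.000209), and its other probe by -0.45. Through the brightest probes, the change of Mbtps1 was above that of Mbtps2 by 0.30 (95% interval 0.18 to 0.42, exact permutation p = 0.0286). Averaged over both probes of each gene the difference was 0.13 and missed the threshold (adjusted exact p = 0.0571).

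Among the genes of transport and storage, Stard4 and Soat1 were called higher and Npc2 lower. Stard4, a soluble carrier of sterols between membranes, rose from 2.14, 1.87, 2.13 and 2.16 to 2.81, 2.80, 2.74 and 2.72 (1.62-fold, log2 0.69, SE 0.0687, adjusted p = 7.24e-05), but its other probe changed by 0.13 (adjusted p = 0.0195). The mean of the probes, 0.41, was not called. Soat1, which esterifies cholesterol for storage, went from -6.62, -6.18, -6.08 and -6.60 to -4.75, -4.76, -4.96 and -4.81 (2.93-fold, log2 1.55, SE 0.133, adjusted p = 3.23e-05). It was a dim probe, well above background on 3 of the 4 control arrays, and it passed the filter of 4 arrays only with the help of the HX630 arrays. When a probe had to be above background on all 8 arrays, Soat1 was not tested and 16 genes were called higher. With normexp background correction its change was 0.28 (adjusted p = 0.123), so this call rests on how the background is removed.

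Npc1 and Npc2 together pass cholesterol from the lysosome to the rest of the cell, Npc2 as the soluble and Npc1 as the membrane protein. Npc2 fell from 3.90, 3.85, 3.81 and 3.83 to 3.25, 3.14, 3.06 and 3.16, to 61.8% of the control level (log2 -0.70, SE 0.048, adjusted p = 9.66e-06). Under spike-in scaling its change was -0.46 and was not called. Npc1 was at -2.01, -2.09, -2.07 and -2.11 in the controls and -2.08, -2.23, -2.16 and -2.20 with HX630, with overlapping groups (log2 change -0.10, adjusted p = 0.0883), and its sign turned under spike-in scaling (0.13). The difference between their changes was 0.60 (95% interval 0.50 to 0.69, exact permutation p = 0.0286).

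**Figure D3:**
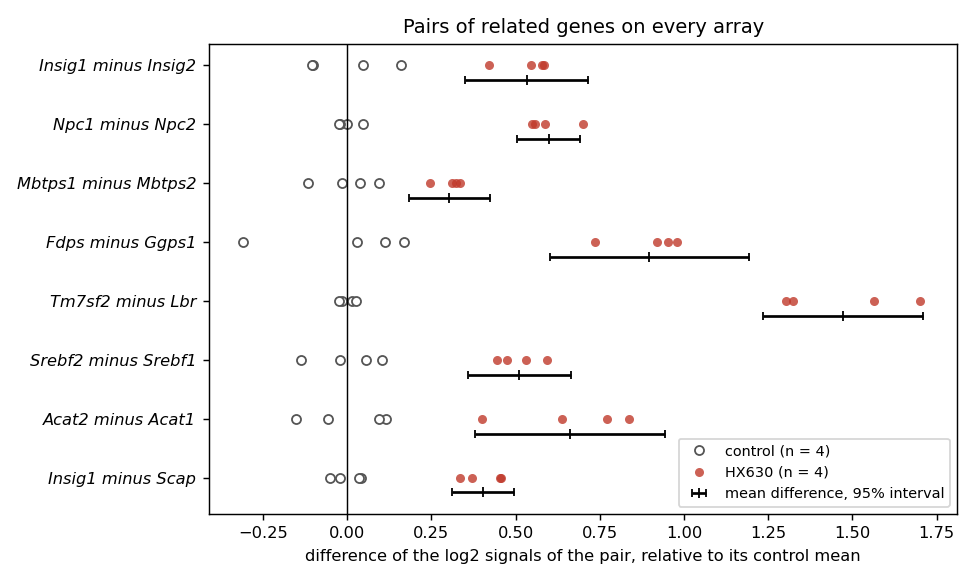
Difference between the log2 signals of 2 related genes on every array, relative to its mean over the 4 controls, for 8 of the 9 pairs compared (open points, control; filled points, HX630; bars, mean difference with its 95% interval). In each of the 8 pairs the 4 HX630 arrays lie above the 4 control arrays.

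All 9 pairs gave the same exact p of 0.0286, the smallest this test allows. Benjamini-Hochberg adjustment over 9 equal values cannot change it, so the adjusted value of 0.0286 adds nothing. The pairs were chosen with earlier results of these data known, and they include Acat2 against Acat1, the mitochondrial thiolase, which differed by 0.66 (95% interval 0.38 to 0.94, exact permutation p = 0.0286). With normexp background correction this difference was 0.36 and missed the threshold (adjusted exact p = 0.0571), as it did without control replicate 3 (0.61, adjusted exact p = 0.0571).

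Genes next to the pathway were read from the same fit, in lists written from general knowledge. Their counts stand against the 8.38% of all genes called higher and the 11.2% called lower. In the list of further synthesis steps and supply of acetyl-CoA, 3 of 8 genes were called higher and none lower (median 0.42), and 6 were called higher under spike-in scaling (median 0.65). Slc25a1, the mitochondrial citrate carrier, rose by 0.95, and Acat1 was not called (0.43). In the list of other SREBP2 targets and cholesterol uptake, 2 of 10 genes were called higher and 3 lower (median 0.08). Aacs, which activates acetoacetate for sterol synthesis, rose by 0.74. The lipoprotein receptors Vldlr and Lrp1 fell by 1.01 and 0.90.

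The next lists concern the handling of the SREBP2 complex. None of 14 genes of sterol-regulated degradation and ER retention was called higher and 1 was lower, Erlin1, an ER membrane protein that binds cholesterol (-0.80; median of the list -0.05). Under spike-in scaling Erlin1 was not called, 1 gene was called higher and the median was 0.19, so the counts and the direction of this list depend on the scaling. Of the 10 genes of the COPII coat, which buds the vesicles that carry SCAP and SREBP from the ER, 4 were called lower and none higher (median -0.39). Sec24d (-1.34) and Sec23a (-0.89), both parts of the inner coat, and Sec31a (-0.80), of the outer coat, changed most, and Sec24a was at -0.70. All 10 COPII genes were below control, but 2 turned positive under quantile and under median scaling and 3 under spike-in scaling, where 2 were called lower. Of 16 genes of the nonsterol branches of the pathway (ubiquinone, dolichol, protein prenylation), none was called higher and 1 lower, Rabggtb, a subunit of the enzyme that prenylates Rab proteins (-0.63; median 0.01). The call of Rabggtb was lost under quantile, median and spike-in scaling, and 1 gene of this list was called higher under median and spike-in scaling (median 0.24 under the latter).

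In the list of fatty acid synthesis under SREBP1, 5 of 14 genes were called higher and none lower (median 0.28). They were led by the desaturases Fads2 (1.29) and Scd1 (1.06) and the elongase Elovl6 (0.87), with Scd2 at 0.62 and Fads1 at 0.60, while Srebf1 itself did not pass the test. In the list of LXR and its targets, 8 of 11 genes could be tested, and 2 were called in each direction (median -0.39). Lpcat3, which remodels membrane phospholipids, rose by 1.33, Nr1h3, which encodes LXRα, fell by 1.26, and Arl4c, a small GTPase, fell by 0.61, while Mylip, a ubiquitin ligase for lipoprotein receptors, was at 0.61. Of the oxysterol and bile acid enzymes, 5 of 7 could be tested and 2 were called in each direction, with Cyp7b1 and Cyp39a1, which clear oxysterols, at 1.51 and 0.69, Hsd3b7 at -1.62 and Cyp27a1, the mitochondrial sterol hydroxylase, at -1.35 (median -0.17). In the list of sterol transport, storage and lysosomal release, 15 of 17 genes could be tested, none was called higher and 2 were called lower, Scarb2, a lysosomal membrane protein, at -1.29 and Stard5, a sterol carrier related to Stard4, at -0.72 (median -0.02). Under spike-in scaling 2 genes of this list were called higher and 1 lower, with a median of 0.22, and the median of the COPII list was -0.16. The LXR list had 1 gene called lower in place of 2 under quantile, median and spike-in scaling and with normexp. It had 1 gene called higher in place of 2 with normexp, with the probes of a gene averaged and with the probe of the smallest change. Under spike-in scaling the median of the oxysterol and bile acid list was 0.06. Leaving out single arrays moved some list counts by 1 gene. Without control replicate 1, the nonsterol and fatty acid lists each gained 1 called lower and the transport list 1 called higher. Without HX630 replicate 3 the nonsterol list had 2 called lower, and without HX630 replicate 4 the transport list had 1 called higher. The LXR list had 3 called lower without control replicate 2 or HX630 replicate 4. The uptake list had 4 called lower without HX630 replicate 2. The fatty acid list had 4 called higher without control replicate 4. Aacs, Lrp1, Sec24a, Scd2, Fads1, Mylip and Cyp39a1 lie beyond the 3 largest changes of their lists and were named after their values were seen.

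**Figure D4:**
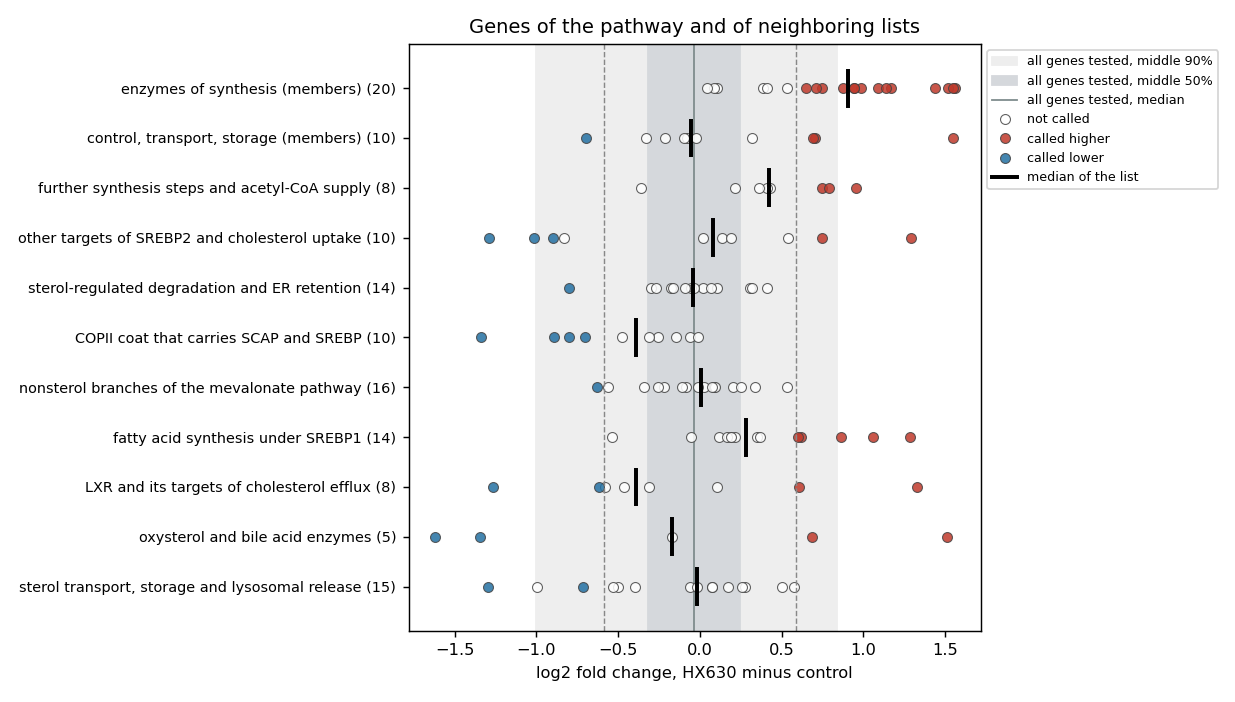
Log2 fold change (HX630 minus control) of each tested gene in the lists, with the number of genes in brackets and the median of each list as a black bar (red, called higher; blue, called lower; open, not called). Shading shows the middle 50% and 90% of all 15319 genes tested, and the enzymes of synthesis are the list with the highest median (0.91). Under scaling to the spike-in probes all values move up by 0.23.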

How the data were processed

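RNA from 4 control and 4 HX630 samples was hybridized to 8 Agilent 1-color arrays, 1 per sample. What the authors deposited is the Feature Extraction (10.7.3.1) file of each array, with processed intensities that are background-subtracted but not scaled between arrays, and a table of log2 values made in GeneSpring. Against the arrays, this table equaled the log2 processed intensity minus the 75th percentile of the array, within 0.00125.

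In R 4.3.3, control and outlier spots were left out, spots of a probe were averaged (39429 probes) and the 75th percentile of each array was subtracted. A probe was tested with limma 3.58.1 (lmFit, eBayes, Benjamini-Hochberg adjustment) if well above background on at least 4 of 8 arrays. Genes were named by RefSeq accession in a table on GRCm38.p6. The array was designed on another build (mm9), so no probe positions are given. Pairs were compared with the exact two-sided permutation test over 70 regroupings, with 95% intervals from the pooled SD. The code was tested on simulated data. Arrays give no counts, and their number limits the precision.

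The 30 genes, the lists and the pairs were chosen with earlier results of these data known. By rule, all 30 genes are named, and of each other list the called genes up to 3 with the largest changes and those in a pair; 4 of these, and 1 pair, are not reported here. Replicate numbers were not used as a block. The alternatives were other scalings, the deposited table, normexp background correction (offset 50), other filters, variance models, thresholds and tests, other choices among the probes of a gene, the replicate block and each array left out.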

Additional observations from a re-analysis of the deposited data

Results flagged for a closer look

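In 6 of 60 groups of 4 arrays (30 genes, both groups), 1 array stood apart from the other 3 by more than Dixon's test allows, where chance gives about 3. For Fdps this was replicate 1 in both groups, at 4.73 against a mean of 5.02 for the other controls (gap over range 0.863) and at 5.85 against 5.96 with HX630 (0.902). Control replicate 1 also stood apart for Tm7sf2, at 0.41 against 0.30 (0.950), and for Insig2, at 1.93 against 2.09 (0.880). For Stard4 it was control replicate 2, at 1.87 against 2.14 (0.904), and for Srebf2 HX630 replicate 4, at -0.22 against -0.10 (0.938). Control replicate 1 had the lowest mean correlation with the other controls over all probes tested, 0.995 against 0.996 (gap over range 0.946). Without it, 17 of the 30 genes were called higher and 1 lower, with a median change of 0.70.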

How the results depend on the processing

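The 17 genes called higher were 14 to 21 under the 26 alternatives, except 8 at a required fold change of 2, and the 1 called lower became 0 at that fold change and under spike-in scaling and 3 with no fold change required. The median change of the 30 genes, 0.70, was 0.76 under quantile normalization, 0.78 with arrays scaled to their median, 0.93 under spike-in scaling, 0.55 with normexp, 0.62 with the probes of a gene averaged and 0.59 with the probe of the smallest change. Its distance from the median of all genes was 0.73 under each scaling to a single value per array. Such scaling moves all genes alike, so this distance could not change. Spike-in scaling moved the median of all genes by 0.23 and the share of higher among called genes from 42.9% to 71.9%; it was 54.7% under median scaling. Leaving out 1 array kept the counts at 17 to 17 and 1 to 1 and the median at 0.67 to 0.72. With the replicate block, 17 genes were called higher and 1 lower. Same-numbered arrays deviated together in 3 of 4 pairs (r = 0.52, -0.0093, 0.24 and 0.38), and differently numbered arrays gave r from -0.41 to 0.26. Same-numbered arrays also held the same position on their slides, so pairing of samples and position cannot be told apart. The numbers were not taken to pair samples in the main fit.

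Of 779 values of single genes, 739 kept their direction and side of the threshold, 18 lost the call, 11 gained it and 11 turned sign. The last were genes that were not called: Ggps1 (-0.072) and Lbr (-0.059) with probes averaged, Lbr (-0.0089) and Scap (0.0092) with normexp, Scap (0.0056) and Mbtps1 (0.062) under median scaling, Mbtps1 (0.049) under quantile normalization, and Scap (0.15), Insig2 (0.020), Mbtps1 (0.21) and Npc1 (0.13) under spike-in scaling. Normexp gave 14 genes called higher and ended the calls of Srebf2, Stard4 and Soat1; the cause was not tested. Dim probes limit what is shown for Soat1.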
